A study of Oryctolagus cuniculus with 6 samples.

Results

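The cytokine and cytokine receptor genes of rabbit (Oryctolagus cuniculus) tissue are described here in 6 RNA-seq libraries. The members are the rows of the deposited gene table that its pathway column places in the KEGG pathway of cytokine-cytokine receptor interaction, 137 genes, without 5 that are not described here (IL1B, CXCL8, LIF, VEGFA and PDGFRB). That leaves 132 of the 16367 genes in the table, 54 of them ligands and 78 receptors. The rule reads the annotation column and no measured value. The libraries are 3 titled control and 3 titled test. Subcutaneous tissue is the labelled source, whereas the title of the series speaks of tissue around cartilage. Strain, age, genotype, the agent given to the test animals and whether each library is a separate animal are not stated in the labels, so p-values measure only the spread between these libraries.

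Cytokines are secreted or membrane-bound proteins that cells use to signal over short distances. Chemokines steer the migration of leukocytes through G protein-coupled receptors. Interleukins of the IL-6, common gamma chain and interferon groups signal through JAK kinases and STAT factors. Members of the IL-1 and TNF families act largely through NF-kappa B, and those of the TGF-beta family through SMAD proteins. In connective tissue these signals recruit leukocytes, drive macrophage and osteoclast formation and set how fibroblasts make matrix. Several receptors are decoys that bind a ligand without passing on a signal.

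Total counts ran from 21923246 to 23105606 in the control libraries and from 17820537 to 21199562 in the test libraries. Levels are given as CPM, counts scaled to library size by edgeR, and are compared between groups of one gene, not between genes, because gene lengths were not used. A fold change is test over control from edgeR, given on the log2 scale with its standard error. A gene was called at an edgeR adjusted p under 0.05 over all 12740 genes tested. In whole tissue, fewer cells of a type and less RNA per cell cannot be told apart. A list of fibroblast markers summed to 17500 CPM or more in every library. Cartilage genes were present too, and their summed level was 2360 to 5390 CPM in control and 4500 to 6350 CPM in test libraries. The fat cell hormone LEP had 0 counts in every library. A list of fat cell markers that includes LEP summed to 76.9 to 163 CPM in control and 44.1 to 52.9 CPM in test libraries. Of its 2 tested members, ADIPOQ was called lower (log2 fold change -1.66 ± 0.26, edgeR adjusted p = 0.0038) and LPL was not called. A list of epidermal markers summed to 2.35 to 3.42 CPM in control and 6.44 to 7.93 CPM in test libraries, with 0 of its 2 tested members called.

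Among the 132 members, 113 had enough counts to be tested, and 20 of these were called, 17.7% against a background of 13.0% of all genes tested. Of the 20, 11 were higher in the test group, where the background is 6.84%, and 9 were lower, where it is 6.15%. The median log2 fold change of the tested members was -0.22, beside -0.004 over all genes, and 73 of the 113 fold changes were below 0. Groups did not overlap in 39 members, or 34.5%, which is near the 35.0% of all genes. Ligands gave 4 higher and 4 lower calls among 41 tested, and receptors 7 higher and 5 lower among 72. The tested members therefore held calls in both directions in each role. Family counts below cover these members only, and genes of the same families outside the pathway column are given at the end.

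**Figure D1:**
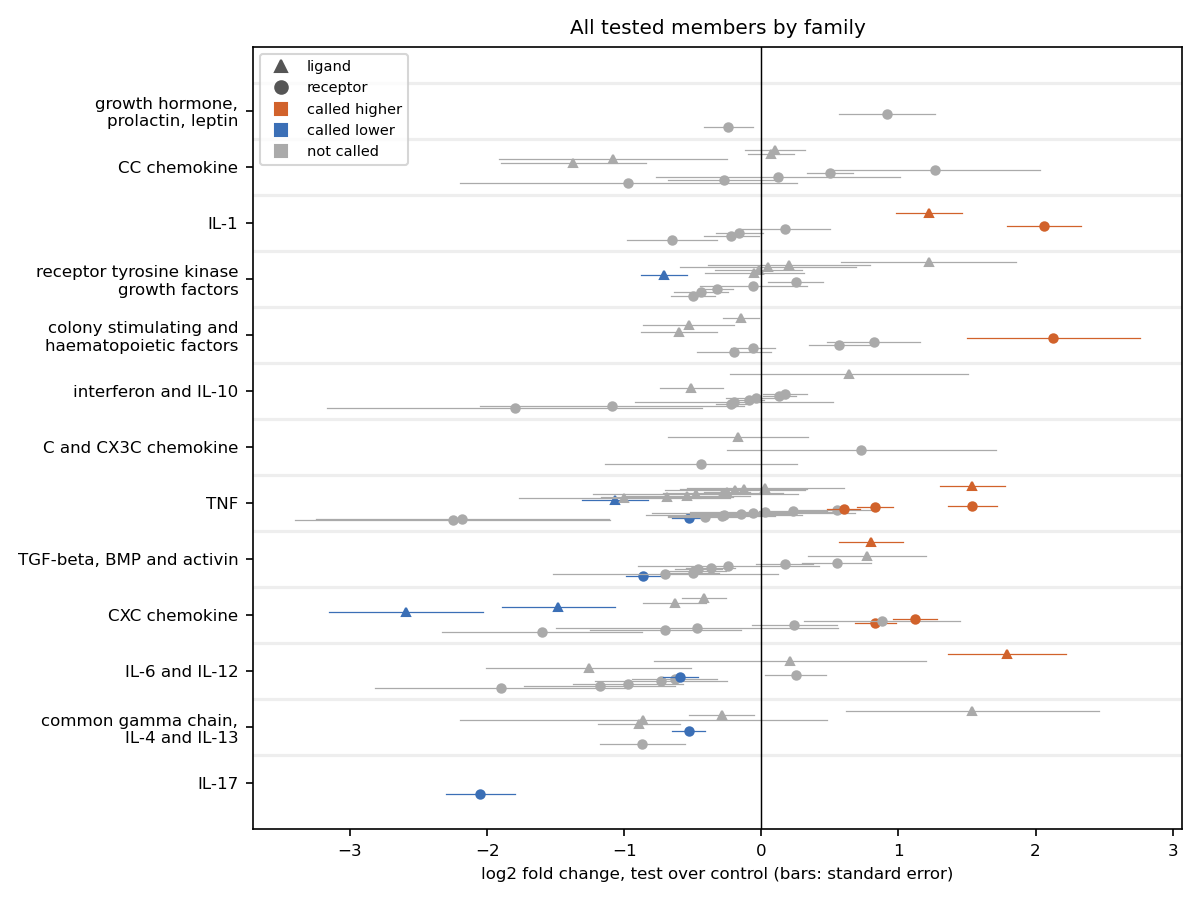
Log2 fold change (test over control, horizontal axis) of the 113 tested members by family, with triangles for ligands, circles for receptors and bars for the standard error. The 11 members called higher are orange, the 9 called lower are blue, and the members not called are grey; families are ordered by their median.

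Not every call held when a library was left out. IL17RB, TGFBR2, LTBR, CXCR4, ACKR3, TNFRSF12A, TNFSF11 and IL1R2 were called in each of the 6 fits that leave out 1 library, which makes 8 of the 20. The other 12 lost the call without at least 1 library, and these are named with their family below. Some members that were not called with all libraries were called without 1 control library. Each such fit leaves out the gene's highest control library for a call higher, or its lowest for a call lower. Those calls therefore add no separate support. CXCR6 and TNFRSF25, not described below, were called higher by edgeR without control replicate 1 (log2 fold changes 0.77 and 0.90, adjusted p = 0.0178 and 0.0371). Of the 20 called members, 19 had groups that did not overlap, and CXCL9 was the exception. Over all genes tested, called or not, the share without overlap was 35.0%. With 3 libraries per group a call favours separate groups, so this count adds no support to the calls.

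**Figure D2:**
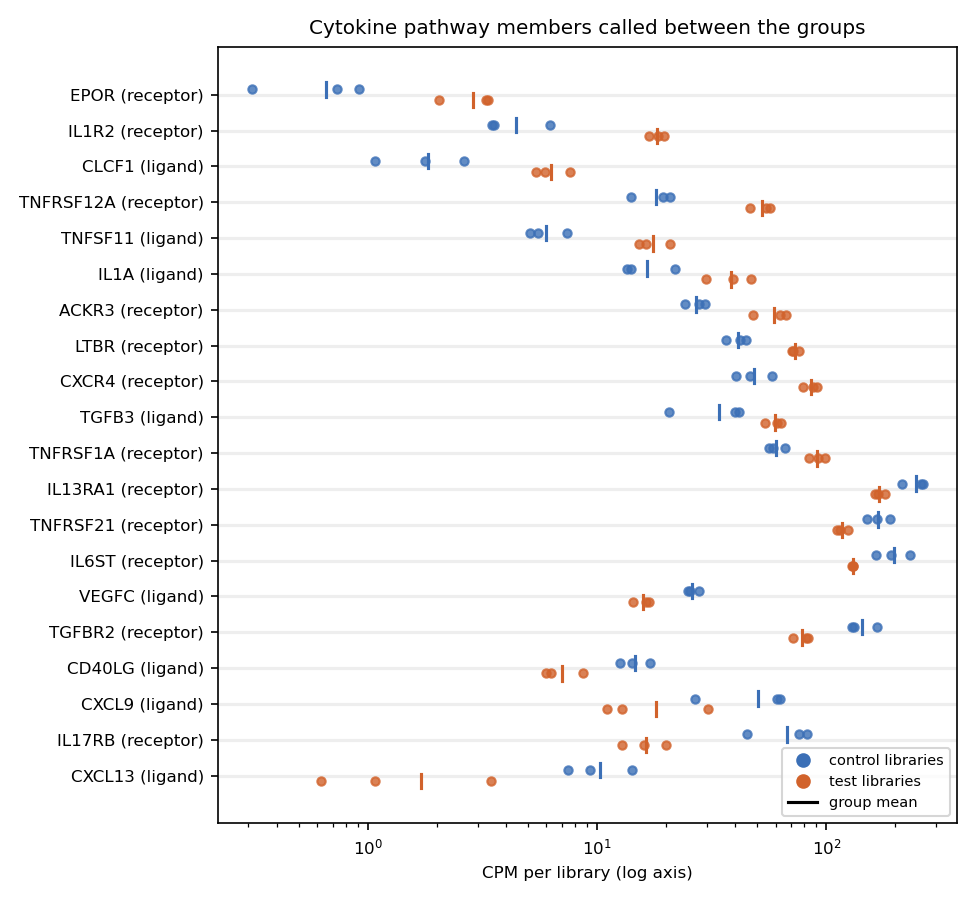
CPM of the 20 called members in each library on a log axis, control in blue and test in orange, with a bar at each group mean. Members are sorted by fold change. Separate groups go with being called. CXCL9 alone overlaps, with its highest test library (30.3 CPM) above its lowest control library (26.7 CPM).

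Among the chemokine genes, 2 of 9 tested ligands (22.2%) were called lower and 2 of 14 tested receptors (14.3%) higher, against 13.0% of all genes called in either direction. A difference between ligands and receptors was not tested, and 8 receptors had fold changes above 0 and 6 below. CXCL13 (ENSOCUG00000024738), which attracts B cells into follicles, was at 14.2, 9.31 and 7.41 CPM in control replicates 1 to 3 and at 1.07, 3.42 and 0.625 CPM in test replicates 1 to 3. Every test library was below every control library, and the log2 fold change was -2.59 ± 0.56 (edgeR adjusted p = 0.0167), a 6.02-fold fall. Its receptor CXCR5, found on B cells and follicular helper T cells, was at 1.57, 1.56 and 0.932 CPM in control and 0.283, 0.654 and 0.385 CPM in test libraries. These groups also did not overlap, but CXCR5 was not called (log2 fold change -1.60 ± 0.73, edgeR adjusted p = 0.175). The CXCL13 call ended without test replicate 1 (adjusted p = 0.0766, log2 fold change -2.35) or test replicate 3 (0.0611, -2.18), and the log2 fold change was -3.60 without test replicate 2.

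CXCL9 (ENSOCUG00000029588), an interferon-gamma-induced chemokine for activated T cells, was at 63.0, 26.7 and 61.0 CPM in control and 30.3, 12.8 and 11.0 CPM in test libraries. The groups overlapped through control replicate 2 and test replicate 1, and the log2 fold change was -1.48 ± 0.41 (edgeR adjusted p = 0.0397). The related ligands of the same receptor were not called with all libraries. CXCL10 was at 322, 723 and 512 CPM in control and 324.5, 320.8 and 362 CPM in test libraries, where only control replicates 2 and 3 stood above the rest. CXCL11 was at 35.6, 43.5 and 46.5 CPM against 32.5, 33.1 and 28.4 CPM, with groups that did not overlap. Their log2 fold changes were -0.63 ± 0.23 and -0.42 ± 0.16 (edgeR adjusted p = 0.104 and 0.105). Without control replicate 1 both were called lower by edgeR (log2 fold changes -0.87 and -0.51, adjusted p = 0.00253 and 0.043), and CXCL10 was also called by the DESeq2 Wald test (0.0337). The shared receptor CXCR3 was at 7.15, 1.42 and 4.17 CPM in control and 2.32, 2.62 and 2.93 CPM in test libraries, so the test range lay within the control range. IFNG, the cytokine that induces these ligands, was at 28.0, 20.5 and 16.6 CPM against 16.0, 17.2 and 12.6 CPM and was not called (log2 fold change -0.51 ± 0.23, edgeR adjusted p = 0.172). The CXCL9 call ended without control replicate 1 (adjusted p = 0.0555, log2 fold change -1.28), control replicate 3 (0.126, -1.32), test replicate 2 (0.156, -1.28) or test replicate 3 (0.147, -1.22), and with the DESeq2 Wald test (0.0641). Without test replicate 1 its log2 fold change was -2.07.

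CXCR4 (ENSOCUG00000001923), the receptor of CXCL12 on leukocytes and progenitor cells, was at 57.6, 40.5 and 46.4 CPM in control and 79.2, 87.2 and 90.9 CPM in test libraries. Each test value was above each control value, and CXCR4 rose 1.78-fold (log2 fold change 0.83 ± 0.15, edgeR adjusted p = 0.00764). ACKR3 (ENSOCUG00000010906), an atypical receptor that takes up CXCL12, was at 27.8, 29.4 and 24.1 CPM in control and 47.9, 62.7 and 66.6 CPM in test libraries. It rose 2.18-fold, again with separate groups (log2 fold change 1.12 ± 0.16, edgeR adjusted p = 0.00301). CXCL12 itself is not analysed here.

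Among the CC chemokine genes, 0 of 9 tested members were called by edgeR, against 13.0% of all genes. Outside the pathway column, CCL11 was called lower and CCL14 higher, as given below. CCL2, which attracts monocytes, was at 422, 666.5 and 444 CPM in control and 539, 482 and 592 CPM in test libraries. The test values fell inside the control range (log2 fold change 0.07 ± 0.17, edgeR adjusted p = 0.817). CCL21, the lymphatic and lymphoid stromal ligand of CCR7, was at 5.04, 3.39 and 4.0 CPM in control and 0.679, 1.56 and 2.55 CPM in test libraries, without overlap, and was not called (log2 fold change -1.37 ± 0.53, edgeR adjusted p = 0.119). CCL19, the other CCR7 ligand, overlapped between the groups. CCR1, a receptor of monocytes and neutrophils, was at 25.5, 24.6 and 25.2 CPM in control and 41.2, 29.1 and 36.2 CPM in test libraries, without overlap (log2 fold change 0.50 ± 0.17, edgeR adjusted p = 0.0752). The chemokine CX3CL1 and its receptor CX3CR1 overlapped and were not called (log2 fold changes -0.17 ± 0.51 and 0.73 ± 0.98, edgeR adjusted p = 0.861 and 0.67). The CX3CR1 value was 1.93 without control replicate 1 and 0.08 without test replicate 1.

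The TNF family held 6 calls among 25 tested members (24.0% against 13.0% of all genes), 4 higher and 2 lower. TNFSF11 (ENSOCUG00000011051), the RANK ligand that drives osteoclast formation, was at 7.35, 5.50 and 5.06 CPM in control and 16.2, 20.9 and 15.2 CPM in test libraries. All test libraries were at least as high as 15.2 CPM and all control libraries were at most 7.35 CPM, a 2.92-fold rise (log2 fold change 1.54 ± 0.24, edgeR adjusted p = 0.00411). TNFRSF11B, osteoprotegerin, the soluble decoy for RANK ligand, was at 11.7, 22.8 and 23.5 CPM in control and 16.0, 12.4 and 15.3 CPM in test libraries. The groups overlapped through control replicate 1, and TNFRSF11B was not called (log2 fold change -0.41 ± 0.27, edgeR adjusted p = 0.345). Without control replicate 1, its lowest control library, it was called lower (log2 fold change -0.66, adjusted p = 0.0435). TNFRSF11A, which encodes RANK, is not analysed here.

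TNFRSF12A (ENSOCUG00000027985), the TWEAK receptor Fn14 of injured and regenerating tissue, was at 20.8, 19.3 and 14.0 CPM in control and 56.8, 46.3 and 54.4 CPM in test libraries. It rose 2.91-fold, with a gap between the groups wider than the range within either (log2 fold change 1.54 ± 0.18, edgeR adjusted p = 0.00105). Its ligand TNFSF12 was at 2.73, 4.27 and 5.99 CPM against 2.15, 4.22 and 4.28 CPM, with overlap, and was not called (log2 fold change -0.28 ± 0.44, edgeR adjusted p = 0.718). LTBR (ENSOCUG00000001292), the lymphotoxin beta receptor of stromal and myeloid cells, was at 44.5, 36.3 and 42.0 CPM in control and 70.8, 75.8 and 71.2 CPM in test libraries. It rose 1.77-fold without overlap (log2 fold change 0.83 ± 0.13, edgeR adjusted p = 0.00382). Its ligands LTB and TNFSF14 overlapped between the groups, and LTB alone ranged from 4.13 to 21.6 CPM among control libraries. TNFRSF1A (ENSOCUG00000010146), the widely expressed TNF receptor, was at 56.4, 58.5 and 66.0 CPM in control and 98.3, 83.7 and 92.3 CPM in test libraries. It rose 1.52-fold without overlap (log2 fold change 0.60 ± 0.12, edgeR adjusted p = 0.0137). TNFRSF1B, the other TNF receptor, and TNF itself overlapped and were not called (log2 fold changes 0.23 ± 0.25 and -0.13 ± 0.46, edgeR adjusted p = 0.585 and 0.884), although TNFRSF1B was called higher without control replicate 1 (log2 fold change 0.59, adjusted p = 0.0455). The TNFRSF1A call ended without test replicate 1 or test replicate 3 (adjusted p = 0.0688 and 0.0701).

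The TNF family members called lower were CD40LG and TNFRSF21. CD40LG (ENSOCUG00000003911), the T cell ligand that activates B cells and macrophages, was at 17.1, 14.2 and 12.6 CPM in control and 8.66, 5.99 and 6.30 CPM in test libraries. It fell 2.10-fold, with each test library below each control library (log2 fold change -1.07 ± 0.24, edgeR adjusted p = 0.0202). TNFRSF21 (ENSOCUG00000016539), the death receptor DR6, was at 150.5, 167 and 189 CPM in control and 124.5, 111.7 and 114.6 CPM in test libraries. The fall of 1.44-fold was small but also without overlap (log2 fold change -0.53 ± 0.12, edgeR adjusted p = 0.0207). CD40LG was not called without test replicate 2 or test replicate 3 (adjusted p = 0.0867 and 0.0911). TNFRSF21 was not called without control replicate 3 (adjusted p = 0.0822) or without test replicate 1, 2 or 3 (0.0654, 0.101 and 0.0998).

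In the IL-1 family, 2 of 6 tested members were called higher and 0 lower (33.3% against 13.0% of all genes). IL1RL1, a receptor of this family outside the pathway column, was called lower and is given below. IL1R2 (ENSOCUG00000016746), the decoy receptor that captures IL-1, was at 3.47, 6.19 and 3.55 CPM in control and 16.9, 18.5 and 19.6 CPM in test libraries. It rose 4.16-fold, and the lowest test library exceeded the highest control library (log2 fold change 2.06 ± 0.27, edgeR adjusted p = 0.0019). IL1A (ENSOCUG00000008771), the cell-associated form of IL-1, was at 14.0, 21.9 and 13.5 CPM in control and 38.9, 29.8 and 46.7 CPM in test libraries. It rose 2.33-fold without overlap (log2 fold change 1.22 ± 0.24, edgeR adjusted p = 0.0107). IL1R1, the signalling receptor, was at 48.0, 74.8 and 62.4 CPM against 52.7, 61.7 and 51.8 CPM, and its co-receptor IL1RAP at 24.7, 41.8 and 34.4 CPM against 30.1, 27.0 and 29.3 CPM. Both overlapped between the groups and were not called (log2 fold changes -0.16 ± 0.17 and -0.22 ± 0.20, edgeR adjusted p = 0.581 and 0.495). The IL1A call ended without test replicate 3 (adjusted p = 0.0611, log2 fold change 1.06).

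IL17RB (ENSOCUG00000013508), the receptor chain for IL-25, a cytokine of type 2 immunity, was at 75.6, 45.0 and 82.2 CPM in control and 20.0, 12.8 and 16.1 CPM in test libraries. It fell 4.15-fold, and the highest test library was below the lowest control library (log2 fold change -2.05 ± 0.25, edgeR adjusted p = 0.00108). It was the only tested member of the IL-17 family, since IL17A and IL17B had too few counts. Outside the pathway column, the family's receptor IL17RC was called higher, as given below, and IL17RE was not called.

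**Figure D3:**
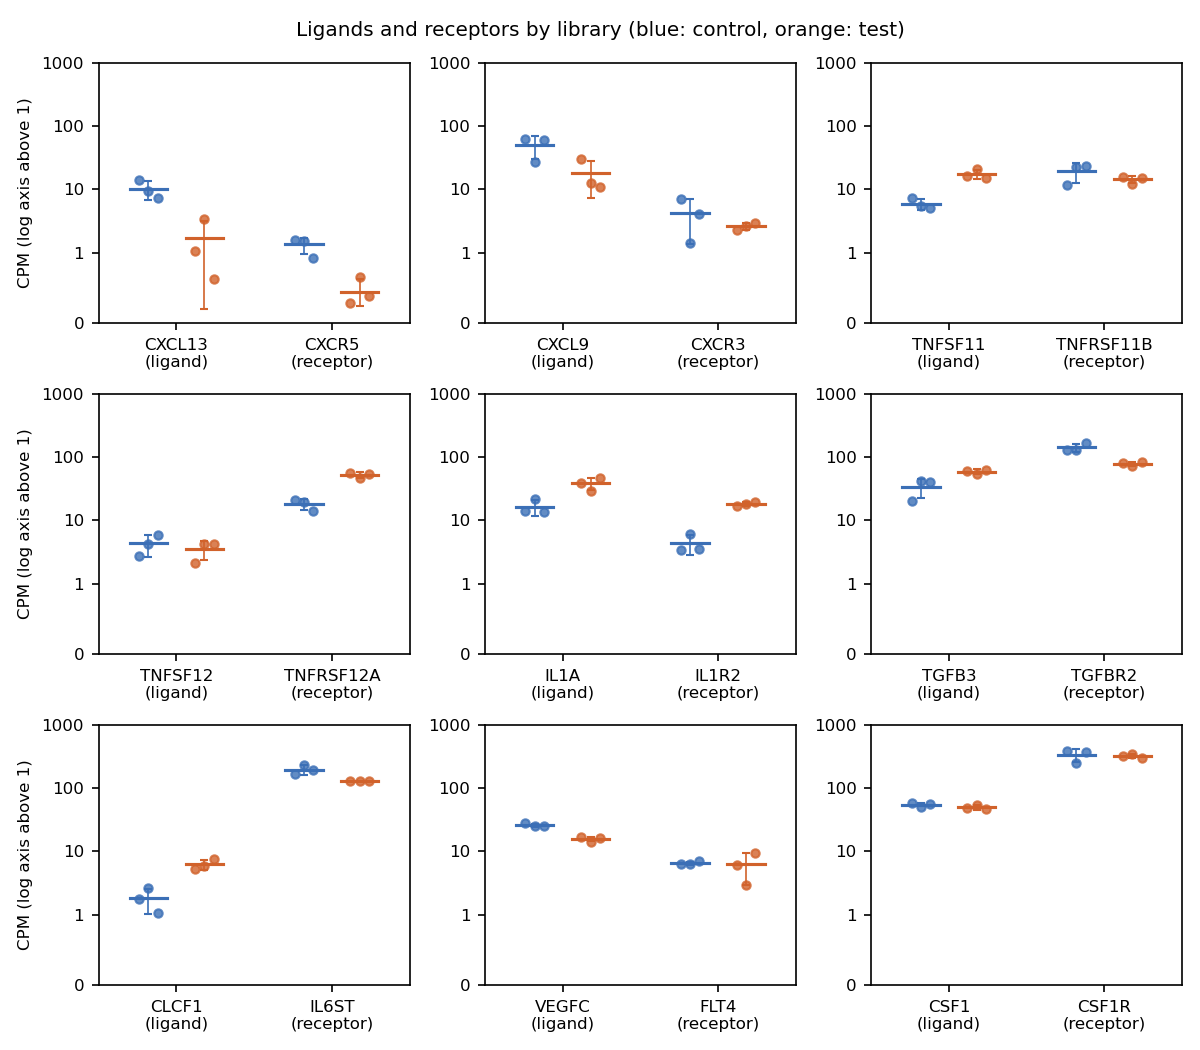
CPM of 9 ligands and a receptor of each in every library, on an axis that is linear below 1 and logarithmic above it, with the group mean and SD (n = 3 per group). RANK ligand TNFSF11, IL1A, IL1R2 and TNFRSF12A are higher in all test libraries, CXCL13 and TGFBR2 are lower in all of them, and CSF1 and CSF1R overlap between the groups.

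Among the IL-6 and IL-12 families, 1 of 10 tested members rose and 1 fell (20.0% called, against 13.0% of all genes). CLCF1 (ENSOCUG00000003943), a cytokine that signals through the ciliary neurotrophic factor receptor and gp130, was at 1.78, 2.61 and 1.06 CPM in control and 5.38, 5.88 and 7.60 CPM in test libraries. It rose 3.45-fold without overlap (log2 fold change 1.79 ± 0.43, edgeR adjusted p = 0.0237). IL6ST (ENSOCUG00000007839), gp130 itself, the signalling chain shared by this family, was at 165, 232 and 192 CPM in control and 130.1, 130.0 and 131.2 CPM in test libraries. The test libraries were nearly equal and all lay below the control libraries (log2 fold change -0.59 ± 0.13, edgeR adjusted p = 0.0201). CNTFR, the binding chain for CLCF1, was at 2.64, 0.321 and 1.82 CPM against 0.792, 0.252 and 0.240 CPM, with overlap (log2 fold change -1.90 ± 0.92, edgeR adjusted p = 0.201). The receptors LIFR, IL6R and OSMR, which work together with gp130, were not called (log2 fold changes -0.73 ± 0.48, -0.63 ± 0.31 and 0.25 ± 0.22). The LIFR value was 0.06 without control replicate 2. OSMR was at 69.8, 144 and 92.3 CPM in control and 118.7, 114.5 and 131.2 CPM in test libraries. Without control replicate 2, its highest control library, OSMR was called higher (log2 fold change 0.59, edgeR adjusted p = 0.0213). The calls of CLCF1 and IL6ST ended without control replicate 3 (adjusted p = 0.0685 and 0.0624) and without test replicate 1 (0.0647 and 0.0829), test replicate 2 (0.0788 and 0.0875) or test replicate 3 (0.113 and 0.0882).

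In the TGF-beta family, 2 of 11 tested members were called (18.2% against 13.0% of all genes), a ligand that rose and a receptor that fell. TGFBR2 (ENSOCUG00000015963), the receptor chain that binds TGF-beta first, was at 132.5, 129.6 and 167 CPM in control and 81.4, 71.5 and 82.8 CPM in test libraries. It fell 1.82-fold without overlap (log2 fold change -0.86 ± 0.13, edgeR adjusted p = 0.00401). TGFBR1, its signalling partner, was at 19.4, 21.0 and 17.9 CPM against 14.0, 13.8 and 14.5 CPM, also without overlap, and was not called (log2 fold change -0.46 ± 0.17, edgeR adjusted p = 0.108). TGFB3 (ENSOCUG00000011415), a TGF-beta isoform, was at 20.6, 41.7 and 39.9 CPM in control and 61.1, 54.0 and 63.1 CPM in test libraries. It rose 1.75-fold without overlap (log2 fold change 0.80 ± 0.23, edgeR adjusted p = 0.0493). TGFB2, at 16.0, 79.5 and 31.2 CPM in control and 78.9, 73.0 and 64.1 CPM in test libraries, had test values within its control range and was not called (log2 fold change 0.77 ± 0.43, edgeR adjusted p = 0.274). Without control replicate 2, its highest control library, TGFB2 was called higher (log2 fold change 1.62, edgeR adjusted p = 0.00267). That fit drops the control library that overlaps the test group, so it adds no separate support. With all libraries none of the other receptors of the family was called by edgeR, and BMPR1A, a BMP receptor, was called lower without control replicate 1 (log2 fold change -0.68, adjusted p = 0.0418); BMPR2, the type II BMP receptor, was at 20.4, 19.1 and 18.9 CPM against 15.7, 11.5 and 14.1 CPM (log2 fold change -0.50 ± 0.19, edgeR adjusted p = 0.107). The TGFB3 call ended without control replicate 3 (adjusted p = 0.0808), test replicate 1 (0.134), test replicate 2 (0.112) or test replicate 3 (0.157), and with DESeq2 size factors (0.0505).

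Of 6 tested ligands and receptors of the common gamma chain, IL-4 and IL-13 group, IL13RA1 alone was called (16.7% against 13.0% of all genes). IL13RA1 (ENSOCUG00000013687), a receptor chain for IL-13 and IL-4 outside lymphocytes, was at 214, 265 and 259 CPM in control and 163, 168 and 179.6 CPM in test libraries. It fell 1.45-fold without overlap (log2 fold change -0.53 ± 0.12, edgeR adjusted p = 0.0188). IL7, the survival factor of lymphocytes, was at 11.4, 9.63 and 7.50 CPM against 5.71, 5.93 and 3.75 CPM, and its receptor IL7R at 12.3, 7.93 and 6.30 CPM against 5.09, 4.88 and 4.57 CPM. Both had separate groups without a call (log2 fold changes -0.89 ± 0.30 and -0.87 ± 0.31, edgeR adjusted p = 0.0766 and 0.0965), and the DESeq2 Wald test called IL7 lower (0.038). The IL13RA1 call ended without control replicate 3 (adjusted p = 0.0747) or without test replicate 1, 2 or 3 (0.0918, 0.0884 and 0.0711).

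The genes of the macrophage colony stimulating factor axis were not called. CSF1 was at 58.2, 51.2 and 56.2 CPM in control and 47.9, 54.3 and 47.5 CPM in test libraries, and CSF1R, its receptor on macrophages, at 385, 252 and 377 CPM against 322, 353 and 296 CPM. Both overlapped between the groups (log2 fold changes -0.15 ± 0.13 and -0.06 ± 0.16, edgeR adjusted p = 0.491 and 0.837). IL34, the other CSF1R ligand, which the table does not place in the pathway, was level between the groups (edgeR adjusted p = 0.998; log2 fold change 0.00 ± 0.26). CSF2RB, the shared receptor chain of GM-CSF, IL-3 and IL-5, was at 124, 63.7 and 94.6 CPM against 168, 131 and 121 CPM, and CSF3R, the neutrophil growth factor receptor, at 4.09, 3.30 and 2.93 CPM against 4.87, 7.54 and 5.82 CPM. Neither was called (log2 fold changes 0.57 ± 0.22 and 0.82 ± 0.34, edgeR adjusted p = 0.116 and 0.143), although CSF2RB was called higher without control replicate 1 (log2 fold change 0.83, adjusted p = 0.0141). EPOR (ENSOCUG00000015702), the erythropoietin receptor, was at 0.909, 0.734 and 0.311 CPM in control and 2.04, 3.27 and 3.32 CPM in test libraries, without overlap (log2 fold change 2.13 ± 0.63, edgeR adjusted p = 0.0497). This call rests on few counts and ended without control replicate 2 (adjusted p = 0.0628), control replicate 3 (0.121) or test replicate 1, 2 or 3 (0.0988, 0.168 and 0.178), with limma-voom (0.0581), with DESeq2 size factors (0.0501) and without the filter (0.0515). The stem cell factor KITLG and its receptor KIT were not called (log2 fold changes -0.60 ± 0.28 and -0.20 ± 0.27, edgeR adjusted p = 0.192 and 0.672).

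Among ligands and receptors of the tyrosine kinase type, 1 of 11 tested members was called (9.09% against 13.0% of all genes). VEGFC (ENSOCUG00000017884), which drives lymphatic growth, was at 27.9, 25.3 and 24.9 CPM in control and 16.9, 14.3 and 16.4 CPM in test libraries. It fell 1.64-fold without overlap (log2 fold change -0.71 ± 0.17, edgeR adjusted p = 0.0219). Its receptor FLT4 was at 6.40, 6.24 and 6.97 CPM against 6.17, 2.97 and 9.62 CPM, with the control range inside the test range (log2 fold change -0.06 ± 0.39, edgeR adjusted p = 0.937). FLT1 and MET, the receptors of VEGF-A and of hepatocyte growth factor, had separate groups and were not called. FLT1 was at 51.3, 37.8 and 47.5 CPM against 35.2, 28.5 and 32.7 CPM (log2 fold change -0.50 ± 0.16, edgeR adjusted p = 0.0672). MET was at 395, 437 and 396 CPM against 334, 345 and 305 CPM (log2 fold change -0.32 ± 0.11, edgeR adjusted p = 0.0798), while its ligand HGF overlapped (log2 fold change -0.02 ± 0.32, edgeR adjusted p = 0.977). The VEGFC call ended without control replicate 3 (adjusted p = 0.0596) or test replicate 1, 2 or 3 (0.0717, 0.0966 and 0.0845), and limma-voom called MET lower (0.0499). FLT1 was called lower by the DESeq2 Wald test (adjusted p = 0.0404) and by edgeR without control replicate 2 (0.0197). KDR, another receptor of this group, overlapped and was not called with all libraries (log2 fold change -0.44 ± 0.20, edgeR adjusted p = 0.176). Without control replicate 2, its lowest control library, KDR was called lower by edgeR (log2 fold change -0.64, adjusted p = 0.0132).

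Of the interferon and IL-10 family, 0 of 10 tested members were called by edgeR, against 13.0% of all genes. The interferon-gamma receptor chains IFNGR1 and IFNGR2, the type I interferon receptor IFNAR1 and the IL-10 receptor chains IL10RA and IL10RB had log2 fold changes between -0.22 and 0.17. IFNAR1 was at 133, 131.5 and 146 CPM in control and 116.4, 118.9 and 118.5 CPM in test libraries, a small shift without overlap (log2 fold change -0.22 ± 0.11, edgeR adjusted p = 0.212). The growth hormone receptor GHR and the prolactin receptor PRLR were not called either (log2 fold changes -0.24 ± 0.18 and 0.92 ± 0.35, edgeR adjusted p = 0.417 and 0.110), although PRLR was called higher without control replicate 2 (log2 fold change 1.24, adjusted p = 0.0393).

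The remaining 19 members had too few counts for the test. EDAR, IL9, TNFSF18 and LEP had 0 counts in all libraries, and IL5, IFNE and LEPR had 2, 2 and 3 counts in all. TNFRSF17, the plasma cell receptor BCMA, had 68, 67 and 9 counts in control and 2, 2 and 4 counts in test libraries. Its values were lower in every test library than in any control library, and it was called lower by edgeR once the filter on low counts was dropped (adjusted p = 0.0238). Without control replicate 3, its lowest control library at 9 counts, TNFRSF17 also passed the filter and was called. That fit keeps only the control libraries where it is high, so it adds no separate support. IL17A, the neutrophil-recruiting cytokine, had 1, 0 and 42 counts in control and 10, 2 and 6 counts in test libraries, so its control sum came nearly all from replicate 3. IL12A, a subunit of IL-12 and IL-35, had 36, 6 and 6 counts against 1, 5 and 1, and IL12B had 14 counts in control replicate 1 and 0 elsewhere.

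Control libraries differed among themselves more than test libraries in the receptors, and less clearly so in the ligands. The coefficient of variation was larger in the control group for 77 of 113 members, or 68.1%, close to the 66.9% of all genes, with a median of 34.0% in control and 18.7% in test libraries (20.7% and 13.8% over all genes). It was larger in control for 55 of 72 receptors, with medians of 32.4% and 16.2%, and for 22 of 41 ligands, with medians of 34.4% and 33.7%. Control replicate 1 held the highest control value in 52.2% of members, against 36.3% of all genes. CCR7, the lymph node homing receptor, was at 39.8, 9.49 and 23.7 CPM in the control libraries, and LTB at 21.6, 4.13 and 9.90 CPM. A list of T and NK cell markers summed to 246, 116 and 113 CPM and a list of B and plasma cell markers to 1510, 746 and 703 CPM in the same libraries. Their part in the spread of the cytokine genes was not tested.

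Genes that carry the signals onward were mixed as well. Of 19 tested JAK, STAT and SOCS genes, 0 rose and 3 fell (15.8% against the background of 13.0%), with a median log2 fold change of -0.18. The kinases JAK1 and JAK2 were among them, with log2 fold changes of -0.54 ± 0.10 and -0.67 ± 0.15 (edgeR adjusted p = 0.0101 and 0.0186). Of 16 tested genes of the SMAD pathway and its extracellular regulators, LTBP2, a latent TGF-beta binding protein family member, rose and SMAD1, a BMP-activated factor, fell (log2 fold changes 1.31 ± 0.30 and -0.88 ± 0.18, edgeR adjusted p = 0.020 and 0.013). These calls make 12.5% of the list, near the background of 13.0%. Their median was 0.28. Among 14 tested adaptors of the TNF and IL-1 receptors, TRADD and IRAK1 rose, and TRAF5 and the NF-kappa B inhibitor TNFAIP3 fell (edgeR adjusted p = 0.0409, 0.0205, 0.0221 and 0.0226). Their median was -0.22, and 28.6% of the list was called.

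Lists of cell type markers were read against the same background of 13.0% of genes called. Among markers of B and plasma cells, 4 of 11 tested fell and 0 rose, and the list summed to 703 to 1510 CPM in control and 304 to 438 CPM in test libraries. JCHAIN, one of those that fell, held most of the control sum, at 458 to 1178 CPM in control and 97.6 to 227 CPM in test libraries. MS4A1, the B cell surface protein CD20, fell from 11.8 ± 5.70 to 3.34 ± 1.26 CPM (SD, n = 3 per group, edgeR adjusted p = 0.0186). CR2 and XBP1, also in the list, had log2 fold changes of -0.16 and -0.07 and were not called. Of the T and NK cell markers 0 of the 7 tested were called by edgeR (CD3 and CD8 chains are not analysed here), with 113 to 246 CPM against 101 to 138 CPM. In the neutrophil list, 3 of 7 tested members rose and 0 fell, with 74.7 to 137 CPM against 409 to 464 CPM. The 3 were S100A8, S100A9 and S100A12, with means of 52.9, 37.5 and 2.43 CPM in control and 234, 164 and 21.1 CPM in test libraries. They held most of the sum. The chemokine and growth factor receptors CXCR1, CXCR2 and CSF3R and the peptide gene CAMP were not called. MPO and LTF were not tested, the latter at 0 counts. Macrophage markers gave 2 higher and 1 lower call among 10 tested, and their median log2 fold change was 0.23. Their sum was 2870 to 2930 CPM in control and 2390 to 2710 CPM in test libraries, and without CD163, the scavenger receptor that fell, it was 1460 to 1800 CPM against 1740 to 1910 CPM. In the fibroblast list, 6 of 7 tested members fell, with 29300 to 41700 CPM against 17500 to 20700 CPM, beside the falls of TGFBR2, IL6ST and IL13RA1. In the endothelial list, 1 of 7 tested members (14.3%) fell, a share near the background, with 794 to 1290 CPM against 691 to 794 CPM. All 8 tested skeletal muscle markers rose, with 4.87 to 8.62 CPM against 62.8 to 81.0 CPM. The part of these cell types in the cytokine and receptor values was not tested.

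**Figure D4:**
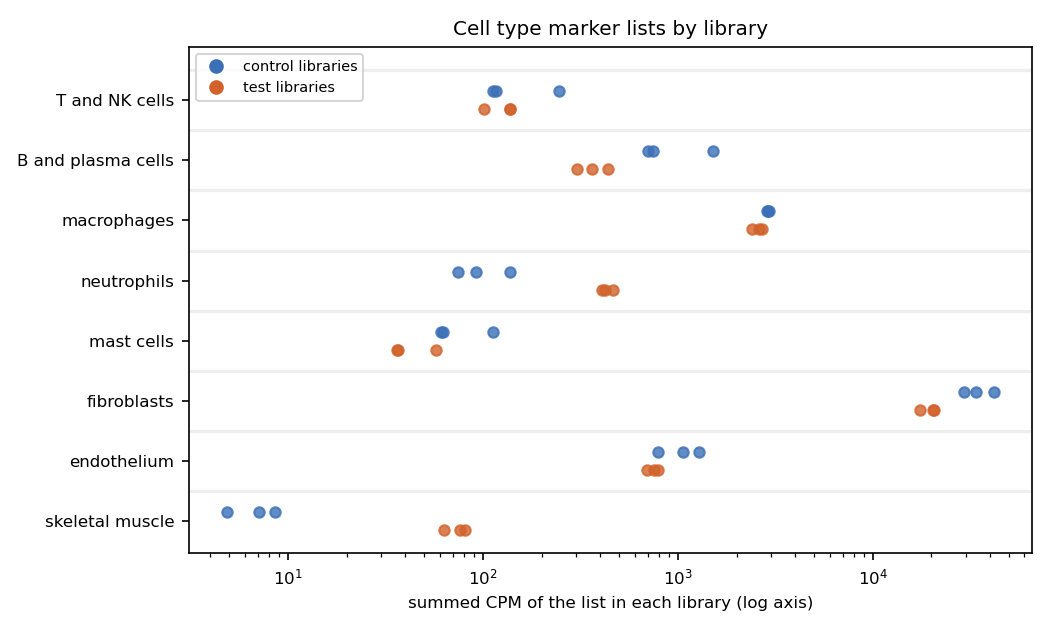
Summed CPM of 8 cell type marker lists in each library on a log axis, control in blue and test in orange. The B and plasma cell, macrophage, mast cell and fibroblast lists are lower and the neutrophil and skeletal muscle lists higher in all test libraries. The macrophage list overlaps without CD163, and most of the neutrophil sum comes from S100A8 and S100A9. The T and NK cell list overlaps, and the endothelial list is at 794 CPM in both its lowest control and its highest test library.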

How the data were processed

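Raw counts per gene, as deposited by the authors, were used for 6 libraries (all are whole). Per the labels, RNA was depleted of ribosomal RNA and made into stranded libraries. Per the submitters' processing notes, the tools include HISAT2, Cuffdiff and cutadapt 1.9.3, and the build listed is rn6, a rat assembly, although gene IDs are rabbit. How reads were counted, strand included, is not given in the sources used here. Values of paralogs and overlapping genes that share reads are uncertain. The 6 columns of edgeR-normalized values, per the file headers, were not used.

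Counts were tested with edgeR 4.0.16 (R 4.3.3): filterByExpr (minimum count 10, minimum total 15), TMM, quasi-likelihood test, two-sided, no block, Benjamini-Hochberg over all genes tested. Standard errors were taken as |log2 fold change| divided by the root of F. The procedure was also run on counts simulated from the mean levels and fitted spreads of these data, which does not check the calls made here. Alternatives were DESeq2 1.42.0 size factors or Wald test, limma-voom (limma 3.58.1), no filter, the replicate number as a block, and leaving out each library. The rule named up to 12 called members at each end of the fold changes, which took in all 20, and fixed ligand-receptor pairs; others were chosen after their values were seen. Members and lists were chosen with earlier results of these data known. Counts are reads without molecular identifiers. Standard errors and p-values include the spread between these libraries as well as counting error. The values of 1 gene of the signalling lists are not reported here.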

Additional observations from a re-analysis of the deposited data

How the results depend on the processing

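The number of members called depended on the libraries kept. Members called higher numbered 11 with all libraries and 6 to 15 when a library was left out, and members called lower numbered 9 and 2 to 12. Leaving out control replicate 3 kept 12 of the 20 calls, with 5.43% of all genes called. Leaving out test replicates 1, 2 and 3 in turn kept 11, 11 and 8, with 4.53%, 3.59% and 3.40% of all genes called. The higher and lower counts were 9 and 9 with DESeq2 size factors, 10 and 10 with no filter, 11 and 11 with the DESeq2 Wald test and 10 and 10 with limma-voom. The shares of all genes called were 13.0%, 10.8%, 18.2% and 12.9% in the same order, so the Wald test called more genes throughout. With the replicate number as a block the higher and lower counts were 11 and 9, with 13.2% of all genes called. Of the 20 calls EPOR alone ended there (adjusted p = 0.0836) while CSF2RB was gained (0.0285). Deviations from the group means correlated at 0.08, -0.02 and 0.02 between libraries of the same number, so the numbers are not shown to pair the samples. No named member changed direction together with a call under these settings. Depth limits the members under about 1 CPM, such as EPOR and CXCR5. The causes of these changes were not tested. Leaving out control replicates 1 and 2 gave 27 and 24 member calls, more than the 20 with all libraries. The share of all genes called was higher in these fits as well, at 16.6% and 14.7% against 13.0%.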

Other observations

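Cytokine and receptor genes that the table's pathway column does not place in the pathway add 48 symbols from the family lists, of which 30 were tested. Of these 3 rose and 3 fell, 20.0% against 13.0% of all genes, and the median log2 fold change was -0.08. CCL11, eotaxin, which attracts eosinophils, was at 111, 80.8 and 160.0 CPM in control and 24.9, 15.8 and 13.9 CPM in test libraries. All test libraries were below all control libraries, a 6.45-fold fall (log2 fold change -2.69 ± 0.28, edgeR adjusted p = 0.000525). IL1RL1, the IL-33 receptor ST2 of mast cells and type 2 lymphocytes, was at 40.5, 27.8 and 37.1 CPM against 12.8, 14.2 and 12.3 CPM, also without overlap (log2 fold change -1.43 ± 0.19, edgeR adjusted p = 0.00185). IL13RA2, a decoy receptor for IL-13, fell from 15.2 ± 7.05 to 6.01 ± 0.752 CPM (SD, n = 3 per group, edgeR adjusted p = 0.0302). These falls stand beside those of IL17RB and IL13RA1, while IL13 itself had 0.0888 to 0.785 CPM in control and 0.604 to 1.54 CPM in test libraries and was not called. CCL13, another CC chemokine outside the pathway column, went the other way without a call. It was at 1090, 674 and 962 CPM in control and 1576, 1304 and 1222 CPM in test libraries, without overlap (log2 fold change 0.59 ± 0.17, edgeR adjusted p = 0.0512). In the mast cell list 1 of 4 tested members fell, FCER1A, the IgE receptor chain, from 44.5 ± 17.3 to 18.9 ± 7.27 CPM (adjusted p = 0.0286 by edgeR). Its members summed to 60.9 to 112 CPM against 36.4 to 57.4 CPM. The part of mast cells in the other values was not tested.

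The genes called higher were INHBB, an activin subunit, IL17RC, a chain of the IL-17A receptor, and CCL14, a monocyte chemokine. INHBB was at 0.991, 3.07 and 1.02 CPM in control and 9.73, 5.73 and 9.52 CPM in test libraries, without overlap (log2 fold change 2.30 ± 0.50, edgeR adjusted p = 0.0163). IL17RC went from 4.03 ± 0.771 to 11.0 ± 2.22 CPM and CCL14 from 6.88 ± 2.65 to 13.9 ± 0.927 CPM (edgeR adjusted p = 0.0112 and 0.042). These genes were chosen for naming after their values were seen.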
